A study of Mus musculus with 4 samples.

Results

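The protein-coding genes of mouse chromosomes 3 and 7 were examined in order of their start positions, to see how their RNA levels differed between 2 endometrial cancer cell lines and whether the difference ran along each chromosome evenly or in segments. RNA was measured in 4 libraries, 2 of the line labelled MECPK and 2 of the line labelled MSH2KO21B, which the labels describe as mouse uterine cancer material and as endometrial cancer cell lines. The labels give no treatment, strain, age, or account of how either line was derived, and they do not say whether the replicates were separate cultures, so the line names serve only as labels and the spread between replicates may be technical. Values are TPM, a share of the library's RNA corrected for transcript length, and the depth behind them is unknown. Members were the genes on these chromosomes with 1 TPM or more in at least 2 of the 4 libraries. That left 582 of the 1002 protein-coding genes listed on chromosome 3 and 912 of the 2017 listed on chromosome 7, or 1494 of the 11856 protein-coding genes that reached the same level anywhere in the genome.

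For each gene, the difference was the mean log2(TPM + 1) in MSH2KO21B minus that in MECPK. The median of this difference over all 11856 genes was 0.19, and it was subtracted, so that a relative difference of 0 is that of the median gene. The chromosomes, and the segments described below, were chosen from this same difference. The values that follow are therefore a description of the libraries, with no test of the members. In RNA from whole cultures, fewer cells of a kind and less RNA per cell cannot be told apart.

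Genes are transcribed one by one, yet neighbours can share a level. Cancer cells often gain or lose whole chromosomes or arms, which can shift the RNA of many neighbours by a small amount, and families of related genes that arose by duplication often lie side by side and are switched on together in one cell type. The epidermal differentiation complex on mouse chromosome 3 is such a block. It holds the genes of the cornified envelope, the cross-linked protein shell of keratinocytes, among them loricrin, involucrin, filaggrin, the small proline-rich proteins and the late cornified envelope proteins, flanked by S100 calcium-binding protein genes. Chromosome 7 holds the kallikrein serine protease cluster, part of which works in the shedding of skin cells, many zinc finger genes, and the imprinted domains of Peg3, Snrpn, Igf2 and Kcnq1. DNA copies, chromatin and methylation were not measured in these files, and their part in the differences was not tested.

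The promoter sequences that go with the main patterns are given first. They are 300 bases long, 250 before and 50 after the start of the gene in RefSeq on GRCm38.p6, and run 5′ to 3′ on the gene's own strand. Except where stated, capitals mark CG dinucleotides, the sites of DNA methylation, which are dense at the starts of widely expressed genes. Among pairs of genes that start within 1000 bases of each other and point apart, 3 whose members were both higher in MSH2KO21B are shown by the window that covers both starts. Cep89 (chr7:35396813-35397112, plus strand) lies opposite Faap24, Acadsb (chr7:131410351-131410650, plus strand) opposite Ikzf5, and Selenof (chr3:144570177-144570476, plus strand) opposite Hs2st1.

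Cep89: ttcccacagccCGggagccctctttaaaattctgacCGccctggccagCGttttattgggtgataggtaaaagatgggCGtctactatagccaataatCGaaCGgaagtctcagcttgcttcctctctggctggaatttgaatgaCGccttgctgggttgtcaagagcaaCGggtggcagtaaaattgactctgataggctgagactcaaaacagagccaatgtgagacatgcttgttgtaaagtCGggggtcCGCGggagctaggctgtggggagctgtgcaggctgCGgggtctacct

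Acadsb: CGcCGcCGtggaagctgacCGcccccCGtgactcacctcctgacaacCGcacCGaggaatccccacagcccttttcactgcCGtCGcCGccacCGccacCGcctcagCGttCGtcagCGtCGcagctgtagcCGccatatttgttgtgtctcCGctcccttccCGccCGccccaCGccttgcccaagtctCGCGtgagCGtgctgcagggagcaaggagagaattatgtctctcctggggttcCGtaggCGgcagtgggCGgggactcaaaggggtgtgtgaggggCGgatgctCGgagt

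Selenof: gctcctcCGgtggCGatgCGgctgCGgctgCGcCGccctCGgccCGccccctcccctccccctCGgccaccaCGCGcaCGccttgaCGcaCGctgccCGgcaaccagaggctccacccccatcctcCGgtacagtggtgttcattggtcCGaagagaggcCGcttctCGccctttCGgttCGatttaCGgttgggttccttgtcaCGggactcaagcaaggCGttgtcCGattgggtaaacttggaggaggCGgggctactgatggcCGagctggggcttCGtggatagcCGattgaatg

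The first of these windows held 12 CG dinucleotides, and the other two held 29 each. The promoter of Sprr1b (chr3:92438730-92439029, minus strand), a small proline-rich protein gene in the middle of the epidermal differentiation complex, stands for the segment of chromosome 3 with the largest differences. It was chosen after the values were seen. Its capitals mark the 1 match to TATAAA and the 1 match to TGANTCA, a loose form of the AP-1 site, and it held 3 CG dinucleotides.

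Sprr1b: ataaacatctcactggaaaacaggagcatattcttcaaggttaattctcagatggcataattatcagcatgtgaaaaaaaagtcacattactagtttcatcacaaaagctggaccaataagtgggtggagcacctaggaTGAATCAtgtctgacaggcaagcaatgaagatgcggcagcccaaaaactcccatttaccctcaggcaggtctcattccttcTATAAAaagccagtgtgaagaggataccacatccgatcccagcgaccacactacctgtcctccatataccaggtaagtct

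Extreme single genes outside that block were Lgals7 (chr7:28864136-28864435, plus strand), the largest positive difference of chromosome 7, Bcl2l15 (chr3:103832446-103832745, plus strand), the largest negative one of chromosome 3, and Aqp8 (chr7:123462044-123462343, plus strand), the largest negative one of chromosome 7. The RefSeq start of Lgals7 lies 533 bases from the GENCODE start, so its window lies away from the GENCODE start. Palmd, Ift80 and Smc4 are described by name only.

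Lgals7: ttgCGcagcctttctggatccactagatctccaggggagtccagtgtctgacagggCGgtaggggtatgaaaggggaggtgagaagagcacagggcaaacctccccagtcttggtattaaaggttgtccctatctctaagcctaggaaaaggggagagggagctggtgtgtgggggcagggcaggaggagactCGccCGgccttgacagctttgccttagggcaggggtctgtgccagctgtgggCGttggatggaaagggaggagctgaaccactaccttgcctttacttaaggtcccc

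Bcl2l15: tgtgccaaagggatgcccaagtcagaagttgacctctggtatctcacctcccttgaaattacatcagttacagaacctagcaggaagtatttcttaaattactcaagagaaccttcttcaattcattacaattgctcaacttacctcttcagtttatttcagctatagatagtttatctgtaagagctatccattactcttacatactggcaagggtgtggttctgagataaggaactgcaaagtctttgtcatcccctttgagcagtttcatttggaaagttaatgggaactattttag

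Aqp8: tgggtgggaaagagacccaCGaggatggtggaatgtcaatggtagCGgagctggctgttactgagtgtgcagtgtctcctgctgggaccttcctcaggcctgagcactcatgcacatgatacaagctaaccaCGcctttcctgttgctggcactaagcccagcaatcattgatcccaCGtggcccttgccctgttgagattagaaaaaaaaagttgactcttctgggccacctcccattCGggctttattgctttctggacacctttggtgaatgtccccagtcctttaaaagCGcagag

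These windows held 5, 0 and 6 CG dinucleotides. The median was 7 over all 32544 windows in the RefSeq table and 20 and 19 over the matched members of chromosomes 3 and 7.

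Markers of the labelled tissue were present in part. Of 6 epithelial markers, all were at 1 TPM or more in both lines, with a summed level of 5290 and 5233 TPM in MECPK and of 345 and 333 TPM in MSH2KO21B. Of 8 Mullerian and uterine markers, 5 reached 1 TPM in MECPK and 3 in MSH2KO21B, with sums of 98.4 and 96.4 against 16.5 and 15.5 TPM, and Pgr, Hoxa10 and Hoxa11 were listed at 0 in every library. Of 6 leukocyte markers only Cd68 reached 1 TPM, with sums of 2.504 to 3.72 TPM and Cd3e at 0. Of 4 endothelial markers, 2 did in MSH2KO21B, with sums of 2.78 and 1.83 TPM and Kdr at 0, and of 6 stromal markers none did in either line. The epithelial and Mullerian sums were lower in MSH2KO21B, through Krt7, Krt8, Krt18, Krt19 and Epcam and through Pax2, Emx2, Pax8 and Foxa2. Cdh1, at 100.3 and 99.5 against 166.9 and 165 TPM, and Esr1, at 1.32 and 1.40 against 2.999 and 2.53 TPM, were higher. The part of these markers in the results below was not tested.

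RNA from both chromosomes made up a larger share of the MSH2KO21B libraries. Genes of chromosome 3 held 4.25% and 4.19% of gene TPM in MECPK and 5.14% and 5.11% in MSH2KO21B. Genes of chromosome 7 held 6.22% and 6.14% in MECPK and 8.15% and 8.10% in MSH2KO21B. The 10 most abundant members held 49.5% and 49.2% of the chromosome 3 total in MECPK and 40.9% and 40.7% in MSH2KO21B, and on chromosome 7 they held 31.9% and 31.4% against 26.4% and 26.9%. The median member of chromosome 3 was at 13.2 and 13.8 TPM in MECPK and at 21.9 and 21.6 TPM in MSH2KO21B. For chromosome 7 the medians were 12.4 and 12.7 TPM against 19.8 and 19.5 TPM. On both chromosomes, then, the lines did not overlap in the level of the middle gene.

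The median relative difference was 0.39 on chromosome 7 and 0.37 on chromosome 3, on the log2(TPM + 1) scale. These were ranks 1 and 3 of the 20 chromosomes. Chromosome 18, at 0.38, lay between them, chromosome 4 followed at 0.31, and chromosome 19 was lowest at -0.89. Over the 4 ways to pair a library of one line with a library of the other, the median ran from 0.36 to 0.39 on chromosome 3 and from 0.38 to 0.40 on chromosome 7, so the order of chromosomes 3, 7 and 18 is within that spread. Replicates of one line differed by at most 0.02 in the same median, in either line.

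**Figure D1:**
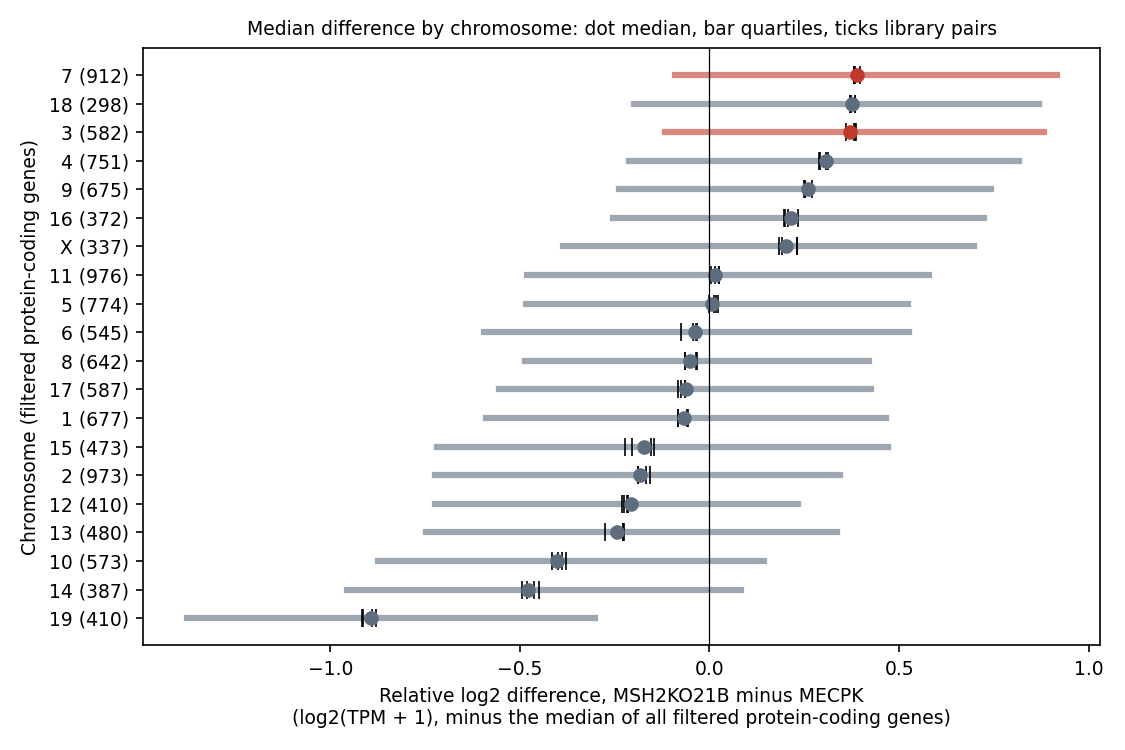
Median relative log2 difference, MSH2KO21B minus MECPK, of the protein-coding genes of each chromosome (x axis, log2(TPM + 1) scale; y axis, chromosome with its number of genes). Dots are medians, bars run from the lower to the upper quartile of genes and ticks are the 4 library pairs; chromosomes 7 and 3, in red, lie at 0.39 and 0.37.

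The difference was spread over many genes and small for most. On chromosome 3 the quartiles were -0.12 and 0.88 and 70.8% of genes were above 0, and on chromosome 7 the quartiles were -0.09 and 0.92 with 69.6% above 0. On the other chromosomes together 47.1% of 10362 genes were above 0. Relative differences above 1 were found for 22.7% of genes on each of the 2 chromosomes and for 14.2% on the others. Below -1 lay 8.76% on chromosome 3, 8.004% on chromosome 7 and 15.2% on the others.

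In the limma fit over all 11921 genes, 76.2% of genes passed an adjusted p of 0.05, with higher values in MSH2KO21B for 46.6% and lower values for 29.7%. On chromosome 3, 398 members passed with higher and 86 with lower values, and 98 did not pass. On chromosome 7 these counts were 583, 129 and 200. The members were chosen on this contrast, so nothing is read from the counts. Of the members that passed, 82.2% on chromosome 3 and 81.9% on chromosome 7 were higher, against 61.1% of all genes. After quantile normalization these shares were 72.4%, 72.5% and 48.1%, and with values centred on the median gene they were 72.1%, 72.0% and 48.2%. With a difference above 1 in addition, 164 members of chromosome 3 and 257 of chromosome 7 passed as higher (18.9% of all genes did), and with a difference below -1, 43 and 64 passed as lower (11.4% of all genes).

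Libraries of the lines did not overlap for 424 higher and 109 lower members of chromosome 3, and for 657 and 163 of chromosome 7. Over all genes tested, 53.7% did not overlap with higher values in MSH2KO21B and 35.2% with lower values. The remaining 49 members of chromosome 3 and 92 of chromosome 7 overlapped.

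Members close to the median included widely expressed genes of cell division and metabolism. On chromosome 7, Ccnd1, the D-type cyclin of the G1 phase, was at 573 and 605 TPM in MECPK and at 878 and 886 TPM in MSH2KO21B. Cnot3, a subunit of the mRNA deadenylase complex, was at 43.1 and 43.4 against 66.8 and 63.8 TPM. Uqcrc2, a core subunit of respiratory complex III, was at 68.9 and 63.6 against 101.6 and 97.6 TPM. On chromosome 3, the ubiquitin ligase gene Rnf13 was at 31.5 and 27.3 against 44.5 and 43.3 TPM, and the splicing factor gene Prpf3 at 28.0 and 28.7 against 38.8 and 41.1 TPM. In all 5 genes both MSH2KO21B libraries lay above both MECPK libraries, as they did for 53.7% of all genes tested. These genes and those named next were picked as nearest to a positive segment median, with 10 TPM or more in both lines. Their direction and size were thus set by the choice. Clk2, a kinase of splicing factors, Nmd3, an export factor of the large ribosomal subunit, Polr3c, a subunit of RNA polymerase III, and the zinc transporter gene Slc30a7 had relative differences of 0.37, 0.37, 0.29 and 0.28.

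The difference depended on the level of the gene. When all genes were split into 3 equal groups by their mean log2(TPM + 1), chromosome 3 members had a median of 0.54 in the low group (215 genes), 0.44 in the middle group (176 genes) and 0.25 in the high group (191 genes). On chromosome 7 the medians were 0.66, 0.44 and 0.16 over 341, 284 and 287 genes. On the other chromosomes together they were 0.18, -0.03 and -0.20, in the same order. Of members with 10 TPM or more in both lines, the median was 0.27 over 309 genes of chromosome 3 and 0.17 over 462 genes of chromosome 7, against -0.10 over all genes of that level. The log2(TPM + 1) scale understates the difference of low genes.

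**Figure D2:**
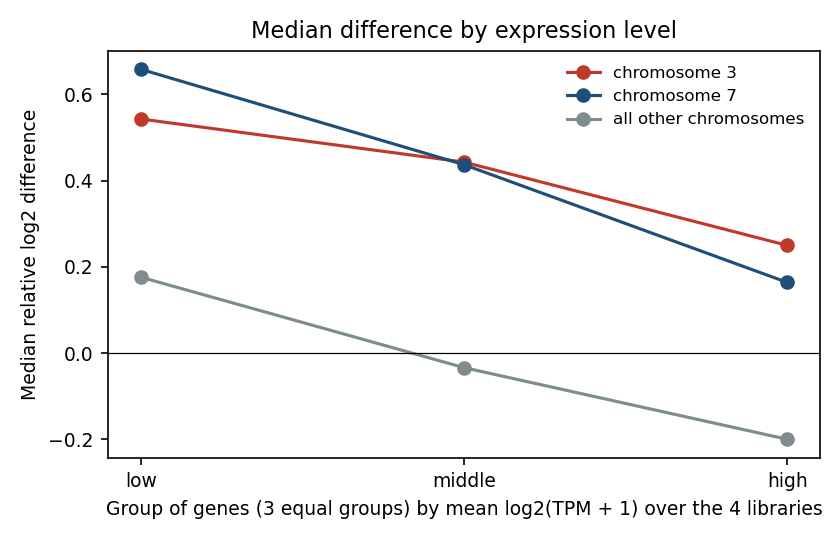
Median relative log2 difference (y axis) in the low, middle and high groups of genes by mean log2(TPM + 1) over the 4 libraries (x axis), for chromosome 3, chromosome 7 and all other chromosomes. All 3 lines descend from the low to the high group, and chromosomes 3 and 7 stay above the others, ending at 0.25 and 0.16 against -0.20.

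Part of the members entered through one line only. On chromosome 3, 67 members (11.5%) reached 1 TPM only in MSH2KO21B libraries, 25 (4.296%) only in MECPK libraries and 490 in both lines. On chromosome 7 these numbers were 108 (11.8%), 23 (2.52%) and 781, and on the other chromosomes 8.67% and 4.44% entered through one line. A gene that entered through one line had to differ, and over genes present in both lines the median was 0.30 on chromosome 3, 0.30 on chromosome 7 and -0.09 on the others. The genes nearest to the level, by their second highest library, were Cd101 at 1.03 and Lce1f at 1.06 TPM inside and Gm6525 at 0.985 and Hist2h4 at 0.979 TPM outside on chromosome 3. On chromosome 7 they were Prrt2 at 1.02 and Zfp128 at 1.03 TPM inside and Tmem91 at 0.991 and Upk1a at 0.978 TPM outside. Of the 420 genes of chromosome 3 that did not reach it, 164 were listed at 0 in every library, and of the 1105 of chromosome 7, 648 were at 0 in every library and 396 had symbols of olfactory or vomeronasal receptors.

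Along both chromosomes most bins and windows had a positive median, as they also did on chromosomes 18, 9, X and 4. All 10 of the 10 Mb bins of chromosome 3 with at least 20 members had a median above 0, from 0.0014 to 0.51, and all 14 such bins of chromosome 7 did, from 0.15 to 0.74. Genome-wide 106 of 208 such bins were above 0, among them 7 of 7 on chromosome 18, 12 of 12 on chromosome 9, 8 of 8 on X and 11 of 12 on chromosome 4. The running median of 41 genes was above 0 in 98.5% of the 542 windows of chromosome 3 and in 99.2% of the 872 windows of chromosome 7, and in all windows of chromosome 18. It was highest at Sprr2i on chromosome 3, at 1.98, and at Klk11 on chromosome 7, at 1.08, and lowest at Ddx20 and at Fancf, at -0.04 and -0.03.

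**Figure D3:**
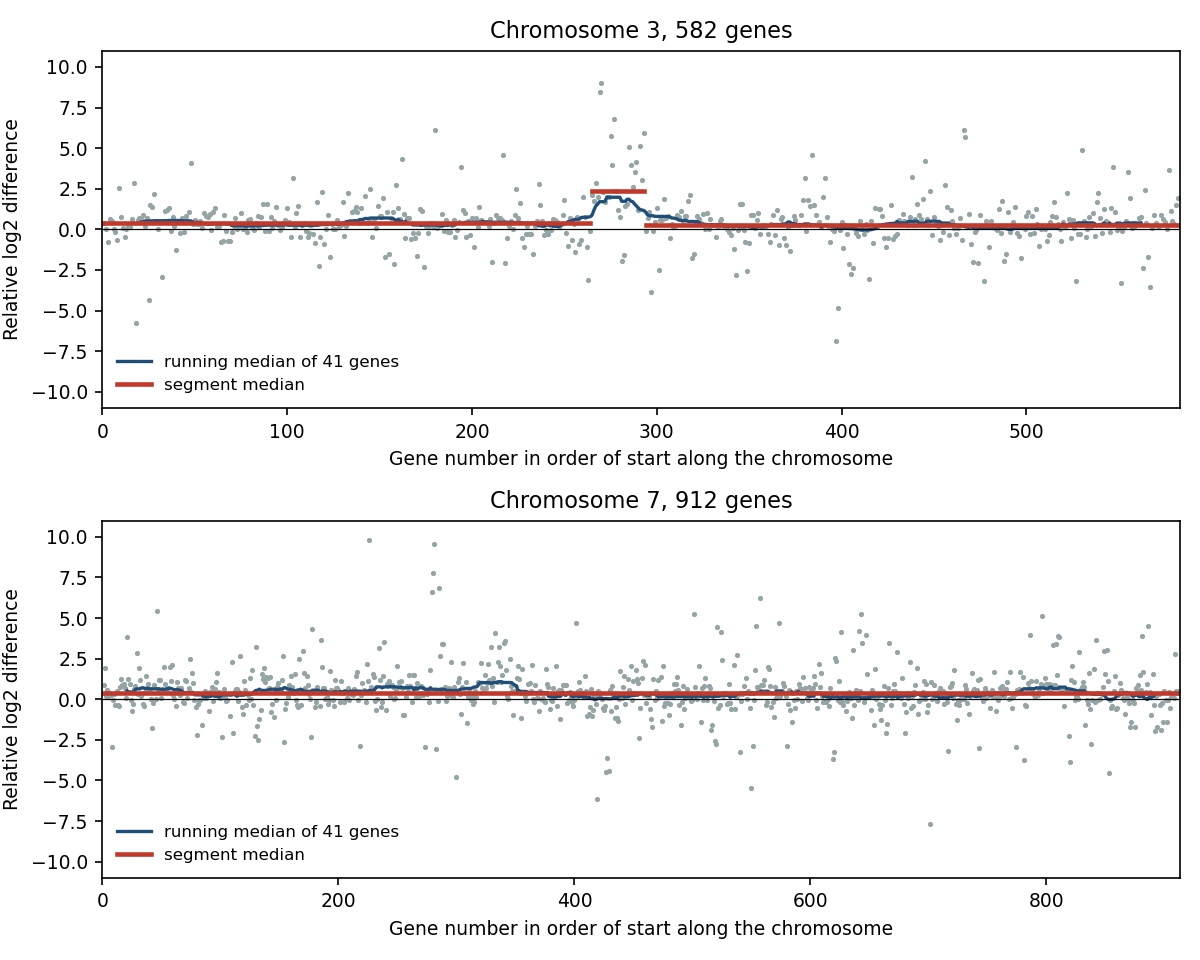
Relative log2 difference of every member (grey points, y axis) in order of gene start (x axis, gene number) along chromosome 3 and chromosome 7. The blue line is the running median of 41 genes and the red bars are segment medians: 3 segments on chromosome 3, with the middle one at 2.37, and 1 on chromosome 7, at 0.39.

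A segmentation that minimised absolute deviations from segment medians, with at least 20 genes per segment and a penalty of 2 b ln(n) for each segment (b the mean absolute deviation over all genes, n the genes of the chromosome), placed 3 segments on chromosome 3 and 1 on chromosome 7. Of the 20 chromosomes, 18 had 1 segment. The first segment of chromosome 3 ran from Pex2 to S100a8 (5560188 to 90670035, GRCm38), with 264 genes and a median of 0.37. The third ran from S100a11 to Wls (93520488 to 159938664), with 289 genes and a median of 0.29. Between them lay 29 genes from S100a9 to Tchh (90692632 to 93449077) with a median of 2.37, quartiles of 1.70 and 4.16, and a range of 2.30 to 2.47 over the library pairs. The 2 long flanks thus had similar medians, and the segment between them was 2.76 Mb long. It was merged with its flanks, leaving 1 segment, with a penalty of 4 b ln(n), with at least 40 genes per segment, among genes with 10 TPM or more, or without the gene clusters. Of these settings, only the penalty could still have returned it. Its 29 genes are fewer than 40, only 11 genes within its bounds remained at 10 TPM, and 28 of its members were on the list of complex genes left out.

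The middle segment of chromosome 3 was the epidermal differentiation complex without most of its S100 genes. Of its 29 members, 27 had higher and 2 lower values in MSH2KO21B, past the limma threshold (46.6% of all genes passed as higher and 29.7% as lower). In MECPK 24 of the 29 were under 1 TPM in both libraries, and 14 were listed at 0 in both. Those 24 entered only through MSH2KO21B, so their direction was set by the level asked of members. The size of the median therefore rests on the pseudocount, and it was 5.05 with 0.1 in place of 1. Among the members at the level in both lines, Sprr1a, Sprr2a2 and Sprr2h were higher and Lce1g and Lce1h lower. Another 31 protein-coding genes within these bounds did not reach the level, among them Crnn, Hrnr, Flg2 and Sprr3. Only 1 member, 2310046K23Rik, an unnamed gene model between Sprr1a and Ivl at 0 and 0 against 121 and 134 TPM, was not on the list of complex genes.

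Loricrin and involucrin RNA were near 0 in MECPK. Lor, which encodes loricrin, the most abundant envelope protein of skin, was at 0.0746 and 0.192 TPM in MECPK and at 9.43 and 7.72 TPM in MSH2KO21B. Ivl, which encodes involucrin, an early envelope scaffold, was at 0.206 and 0.256 against 5.90 and 6.72 TPM. Both genes were present at a low level in MSH2KO21B, above both MECPK libraries.

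The members included 8 small proline-rich protein genes, which encode bridging proteins of the envelope, and 5 of them were under 1 TPM in both MECPK libraries and so could only be higher in MSH2KO21B. The other 3, Sprr1a, Sprr2a2 and Sprr2h, reached the level in both lines and also passed as higher (46.6% of all genes did). Sprr2g, annotated as a polymorphic pseudogene and so not a member, was at 3.93 and 4.27 against 4.81 and 5.17 TPM. In MECPK Sprr1b was listed at 0, and in MSH2KO21B it was at 61.0 and 61.9 TPM. Sprr1a was at 7.51 and 7.79 against 147 and 155 TPM, so it was the member of this family with the highest MECPK level. Sprr2a1 and Sprr2a2 were at 0.442 and 0.846 and at 0.885 and 1.69 TPM in MECPK and at 647 and 670.1 and at 1293 and 1340.1 TPM in MSH2KO21B. These annotated genes overlap and share sequence, so how reads were divided between them, and among the other Sprr2 copies, is uncertain.

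Of 11 late cornified envelope genes among the members, 9 entered only through MSH2KO21B, where they were higher, and the 2 at the level in both lines were lower there. Lce3c was at 0 and 0.307 TPM in MECPK and at 44.8 and 43.0 TPM in MSH2KO21B, and Lce3d was listed at 0 in MECPK and at 16.5 and 16.9 TPM in MSH2KO21B. These 2 genes were Lce1g, at 9.85 and 25.8 against 4.28 and 3.92 TPM, and its neighbour Lce1h, at 3.34 and 9.81 against 1.77 and 1.48 TPM. They were the only members of the segment that were lower, and their MECPK replicates lay far apart. The copies of this family are alike, so values of single genes are uncertain.

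The S100-fused genes at the far end of the complex encode large proteins of keratohyalin granules and of the hair follicle. Tchh, which encodes trichohyalin, was at 0.505 and 0.481 TPM in MECPK and at 102 and 101 TPM in MSH2KO21B. Flg, which encodes the filaggrin precursor, was listed at 0 in MECPK and was at 44.2 and 35.9 TPM, and Rptn, which encodes repetin, was listed at 0 and was at 8.32 and 8.58 TPM. Crct1, a cysteine-rich gene next to the late envelope genes, was at 0.150 and 0 against 23.7 and 18.5 TPM. None of these 4 genes reached 1 TPM in a MECPK library.

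**Figure D4:**
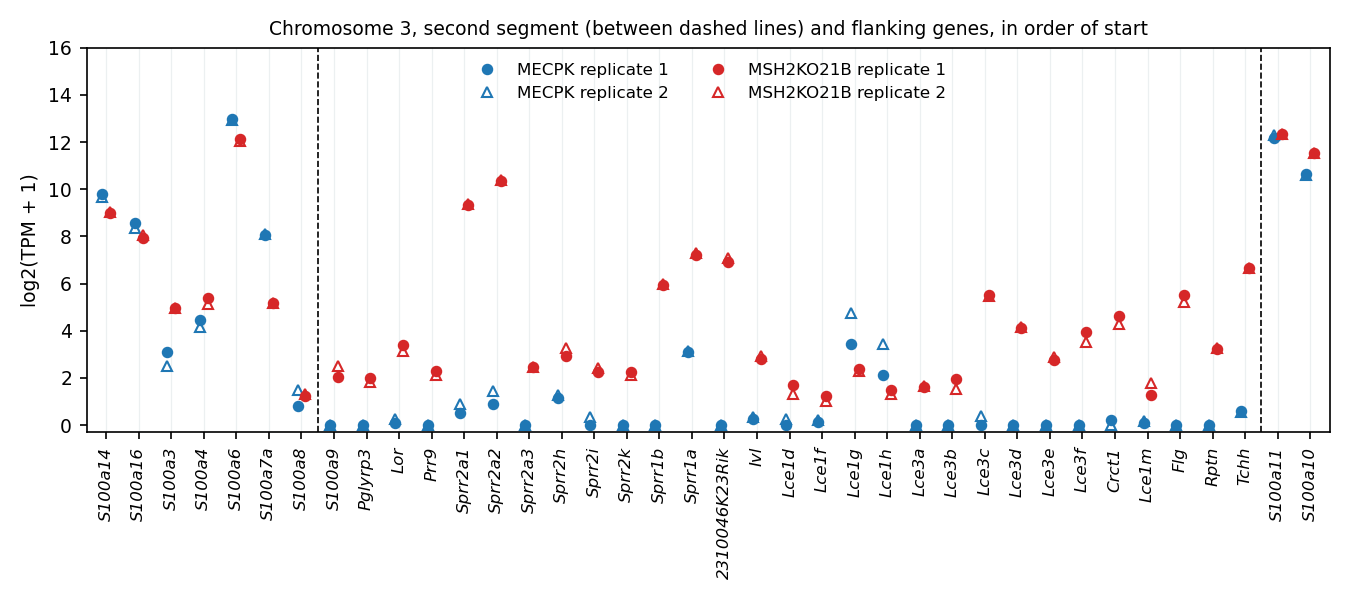
Level of each member of the middle segment of chromosome 3 and of the flanking S100 genes in each library (y axis, log2(TPM + 1); x axis, genes in order of start; dashed lines, segment bounds; circles and triangles, replicates 1 and 2). Between the dashed lines MSH2KO21B, in red, is above MECPK, in blue, for every gene except Lce1g and Lce1h; outside them S100a14, S100a16, S100a6 and S100a7a are lower in MSH2KO21B.

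The S100 genes, which encode small calcium-binding proteins, did not share one direction. Of 12 S100a members on chromosome 3, 5 passed as higher, 5 as lower and 2 did not pass (46.6% of all genes passed as higher and 29.7% as lower). S100a6 was at 8135 and 7771 TPM in MECPK and at 4482 and 4172 TPM in MSH2KO21B, and S100a7a was at 262 and 277 against 35.2 and 34.8 TPM. S100a10, the annexin partner, was at 1612 and 1570.3 against 2945 and 2967 TPM. The lines did not overlap in these 3 genes, with the first pair lower and the last higher in MSH2KO21B. Over all genes tested, 35.2% did not overlap with lower values in MSH2KO21B and 53.7% with higher values. The bounds of the segment fell between S100 genes. S100a8, the last gene before it, was at 0.773 and 1.84 against 1.33 and 1.52 TPM, which overlap, and its partner S100a9, the first gene inside, was listed at 0 in MECPK and at 3.17 and 4.71 TPM in MSH2KO21B. S100a11, the first gene after it, was at 4652 and 5019 against 5123 and 5231 TPM, a relative difference of -0.09.

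The promoters of the segment differed in sequence from those of the rest of the chromosome. Sequence was not used to choose the genes, but their level was, and CG is dense at the starts of widely expressed genes. Of the 29 segment genes, 24 entered only through MSH2KO21B, against 20 of 264 and 23 of 289 in the flanking segments. Promoters of genes that entered in that way outside the segment were not compared separately. Whether the contrast belongs to the segment or to such genes in general was not tested. Promoters were matched for 25 of the 29 genes and for 449 of the other 553 members of chromosome 3 (81.2%). The median ratio of observed to expected CG was 0.069 in the segment and 0.74 outside it, and the median window held 1 CG against 20. TATAAA was found in 14 of 25 windows (56.0%) against 9.13% outside, and TGANTCA in 10 (40%) against 4.23%. GGGCGG, the core of the Sp1 site, was in 2 (8%) against 63.7%, and CCAAT in 5 (20%) against 38.1%. Both strands were searched and no motif was allowed a mismatch. In all 32544 windows of the RefSeq table the shares were 13.6% for TATAAA, 7.79% for TGANTCA, 35.9% for GGGCGG and 37.4% for CCAAT. The Sprr1b promoter printed above carries both motifs that were frequent in the segment. Many of these genes arose by duplication and share promoter sequence, so the windows are not independent, and a match is not a site of binding.

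Of the 67 genes listed for the whole complex with its S100 flanks, 39 were members. Of these, 30 passed as higher, 7 as lower and 2 did not pass, while 46.6% of all genes passed as higher and 29.7% as lower. However, 23 members entered only through MSH2KO21B and so had to be higher there. The 7 lower genes and the 2 that did not pass were all among the 16 at the level in both lines. The median relative difference of the 39 was 1.98, against 0 over all genes by construction, and it rests in part on that entry.

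Outside the complex, Palmd, Crabp2 and Adh7 were among the largest positive differences of chromosome 3. Palmd (ENSMUSG00000033377.14, 116918258 to 116968987, minus strand), which encodes palmdelphin, a paralemmin-related protein, was at 0.0650 and 0.0455 TPM in MECPK and at 80.9 and 86.4 TPM in MSH2KO21B. Crabp2 (ENSMUSG00000004885.5, 87948666 to 87953376, plus strand), which carries retinoic acid to its nuclear receptors, was at 0.273 and 0.257 against 94.8 and 104.9 TPM. Adh7, an alcohol dehydrogenase that oxidises retinol in epithelia, was at 0.0501 and 0 against 35.0 and 33.9 TPM. In each of these genes MECPK was under 1 TPM. Next to Palmd, Frrs1 was lower in MSH2KO21B, at 41.8 and 37.9 against 31.1 and 26.0 TPM, while the gene model 4930455H04Rik, which overlaps the start of Palmd on the other strand, was listed at 0 in MECPK and at 62.8 and 53.2 TPM in MSH2KO21B. The strand setting of the libraries is not given in the sources used here, so reads of overlapping genes may not be separated.

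Genes that were lower in MSH2KO21B on chromosome 3 included 2 immediate neighbours. Bcl2l15 (ENSMUSG00000044165.12, 103832601 to 103854618, plus strand), a member of the Bcl-2 family, was at 134 and 143 TPM in MECPK and at 0.323 and 0.410 TPM in MSH2KO21B. Ptpn22 (103859795 to 103912247, plus strand), which encodes a tyrosine phosphatase known from lymphocytes, was at 46.4 and 47.8 against 0.905 and 0.886 TPM. The genes on either side did not follow. Ap4b1 before them was at 7.13 and 6.85 against 7.19 and 7.77 TPM, with a relative difference of -0.11, and Rsbn1 after them at 6.03 and 7.47 against 7.65 and 7.78 TPM, with a relative difference of -0.02.

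Car2, a carbonic anhydrase gene, was at 39.4 and 56.6 TPM in MECPK and was listed at 0 in both MSH2KO21B libraries. Gyg, which encodes glycogenin, the primer of glycogen synthesis, was at 17.6 and 17.1 against 0 and 0.0283 TPM. Tdrkh, a Tudor-domain gene of the piRNA pathway, was at 16.6 and 15.2 against 0.0382 and 0.680 TPM. Ddah1, which degrades methylated arginines that inhibit nitric oxide synthesis, was at 9.70 and 12.5 against 0.424 and 0.361 TPM. In all 4 genes the MSH2KO21B libraries were under 1 TPM.

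Other gene clusters of chromosome 3 were mostly silent or mixed (46.6% of all genes passed as higher and 29.7% as lower). Of 5 guanylate-binding protein genes, interferon-induced GTPases, 2 were members: Gbp2 at 0.118 and 0.224 against 3.27 and 3.39 TPM, which passed as higher, and Gbp5 at 2.38 and 1.95 against 1.68 and 1.87 TPM, which did not pass. Of 7 glutathione transferase mu genes, 5 were members with a median of -0.40, and 2 passed as higher, Gstm2 at 2.29 and 1.52 against 7.63 and 9.33 TPM and Gstm7 at 17.6 and 18.1 against 26.2 and 26.1 TPM. Gstm1 and Gstm5 had relative differences of -0.59 and -0.52 and did not pass. These copies are near-identical and their values are uncertain. Of 7 chloride channel accessory genes, the 2 members both passed as higher. Clca2 was at 0.0652 and 0.0255 against 15.8 and 16.1 TPM, and Clca3b at 2.06 and 1.35 against 6.72 and 6.44 TPM. However, Clca2 and Gbp2 were under 1 TPM in both MECPK libraries, so they entered only through MSH2KO21B and had to be higher there.

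The growth, survival and cancer genes of chromosome 3 had a median of 0.48. Of 32 listed, 31 were in the table and 27 were members, and 22 passed as higher, 2 as lower and 3 did not pass. Of all chromosome 3 members 68.4% passed as higher, and of all genes 46.6% as higher and 29.7% as lower. Vcam1, an adhesion molecule for leukocyte integrins, was at 9.19 and 8.89 TPM in MECPK and at 73.7 and 78.0 TPM in MSH2KO21B. Tbl1xr1, a subunit of the NCoR corepressor complex, was at 19.6 and 22.9 against 66.7 and 75.5 TPM. Tet2, a methylcytosine dioxygenase, was at 1.86 and 1.86 against 9.28 and 9.99 TPM. In these 3 genes both MSH2KO21B libraries lay above both MECPK libraries, as they did for 53.7% of all genes tested. Several genes of cell division and signalling had smaller differences in the same direction.

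Among these, Ccna2, the S-phase and mitotic cyclin, was at 93.7 and 95.1 against 259.6 and 271 TPM, and Ect2, the exchange factor of cytokinesis, at 30.4 and 36.0 against 97.7 and 99.6 TPM. Mcl1, an antiapoptotic Bcl-2 relative, was at 68.8 and 68.7 against 151 and 155 TPM, and Pik3ca, the catalytic subunit of PI3-kinase alpha, at 7.70 and 8.73 against 13.2 and 13.1 TPM. Nras, the small GTPase, was at 146 and 146 against 192 and 180.1 TPM. The 2 lower genes were Muc1 and Pdgfc. Muc1, the epithelial cell-surface mucin, was at 6.02 and 5.15 against 0.699 and 0.939 TPM. It entered only through MECPK and so had to be lower in MSH2KO21B. Pdgfc, a platelet-derived growth factor, was at 9.93 and 5.76 against 2.34 and 1.63 TPM. Shc1, Rap1a and Bcl10 did not pass.

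Chromosome 7 had no block as sharp as that of chromosome 3. With a penalty of 1 in place of 2 times b ln(n), however, it was cut in 3, and the middle piece ran from 2610021A01Rik to Klk5 (41599230 to 43851181) with 25 genes, 96.0% of them above 0, and a median of 1.29. The pieces before and after it had medians of 0.50 over 317 genes and 0.29 over 570 genes. The middle piece was cut from the same differences, and it held zinc finger genes followed by the kallikrein cluster. Of its 10 kallikrein members, 8 entered only through MSH2KO21B and so had to be higher there. The entry of its other members was not counted.

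The kallikrein genes encode secreted serine proteases, and several of them cleave the corneodesmosomes that hold keratinocytes together in human and mouse skin. Of 26 listed genes, 10 were members, from Klk14 to Klk5. Of these, 8 were under 1 TPM in both MECPK libraries, so they entered only through MSH2KO21B and had to be higher there. The other 2, Klk10 and Klk8, were at the level in both lines and also passed as higher (46.6% of all genes did), and the median of the 10 was 2.16. Klk10 was the highest in both lines, at 39.8 and 48.9 TPM in MECPK and at 212 and 212 TPM in MSH2KO21B. Klk14 was at 0.0810 and 0.0758 against 19.7 and 19.3 TPM, Klk7, the chymotrypsin-like kallikrein of the skin, at 0 and 0.0381 against 11.9 and 12.2 TPM, and Klk5, its trypsin-like activator, at 0 and 0 against 3.04 and 2.94 TPM. Klk6 and Klk11 lay in the same range, at 13.02 and 13.1 and at 11.05 and 9.65 TPM in MSH2KO21B and below 1 TPM in MECPK. The Klk1 and Klk1b genes next to them did not reach the level. All 10 promoters were matched, with a median observed to expected CG of 0.19 and no match to TATAAA or TGANTCA, while 4 held GGGCGG.

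Zinc finger genes were numerous on chromosome 7 and mostly higher. Of 92 genes with symbols that start with Zfp, 74 were members, with a median of 0.68. Of these, 59 passed as higher, 1 as lower and 14 did not pass. Of all chromosome 7 members, 63.9% passed as higher and 14.1% as lower, with a median of 0.39. Of all genes, 46.6% passed as higher and 29.7% as lower. The levels of the Zfp genes and their entry through 1 line were not compared with those of other members. On the other chromosomes, 245 of 305 such genes reached the level, 144 passed as higher and 33 as lower, and the median was 0.24. Zfp110, which was picked for its value, was at 3.79 and 4.17 against 24.3 and 23.1 TPM, and the 1 lower gene, Zfp688, was at 8.20 and 9.76 against 6.02 and 5.80 TPM. Without the Zfp genes and the listed clusters, the median of chromosome 7 was 0.36.

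The 6 largest positive differences of chromosome 7 were those of Lgals7, Krtdap, Dmkn, Fxyd3, Sbsn and Wnt11. Lgals7 (ENSMUSG00000053522.11, 28863853 to 28866284, plus strand), which encodes galectin-7, a lectin of stratified epithelia, was at 0.0930 and 0.263 TPM in MECPK and at 1248 and 1151 TPM in MSH2KO21B. The nearby Hnrnpl was at 235 and 229 against 236 and 239 TPM, and Ech1, a fatty acid oxidation enzyme gene between them, at 8.97 and 8.27 against 49.4 and 48.4 TPM. The difference thus varied from gene to gene over a short distance.

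Sbsn, Dmkn and Krtdap lie in a row (30751471 to 30791097) and encode secreted proteins of differentiating keratinocytes. Krtdap was at 0 and 0.188 TPM in MECPK and at 945 and 956 TPM in MSH2KO21B. Dmkn, which encodes dermokine, was at 0.172 and 0.339 against 317 and 311 TPM, and Sbsn, which encodes suprabasin, at 2.76 and 1.37 against 328 and 324 TPM. All 3 were among the 6 largest differences of the chromosome. The nearest members on either side had smaller ones, Gapdhs at 1.04 and 3.995 against 11.5 and 11.6 TPM and Usf2 at 42.7 and 41.2 against 66.2 and 64.8 TPM. Tmem147, before Gapdhs, was at 279 and 275 against 271 and 280.3 TPM, which overlap. After Usf2, Lsr, a component of tricellular tight junctions, was lower, at 77.2 and 76.5 against 9.42 and 9.88 TPM, and the next gene but one, Fxyd3, a regulator of the sodium pump, was at 9.49 and 3.31 against 880.5 and 873 TPM. Wnt11, a Wnt ligand, completed the 6, at 0.0801 and 0.0250 against 97.6 and 84.7 TPM.

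**Figure D5:**
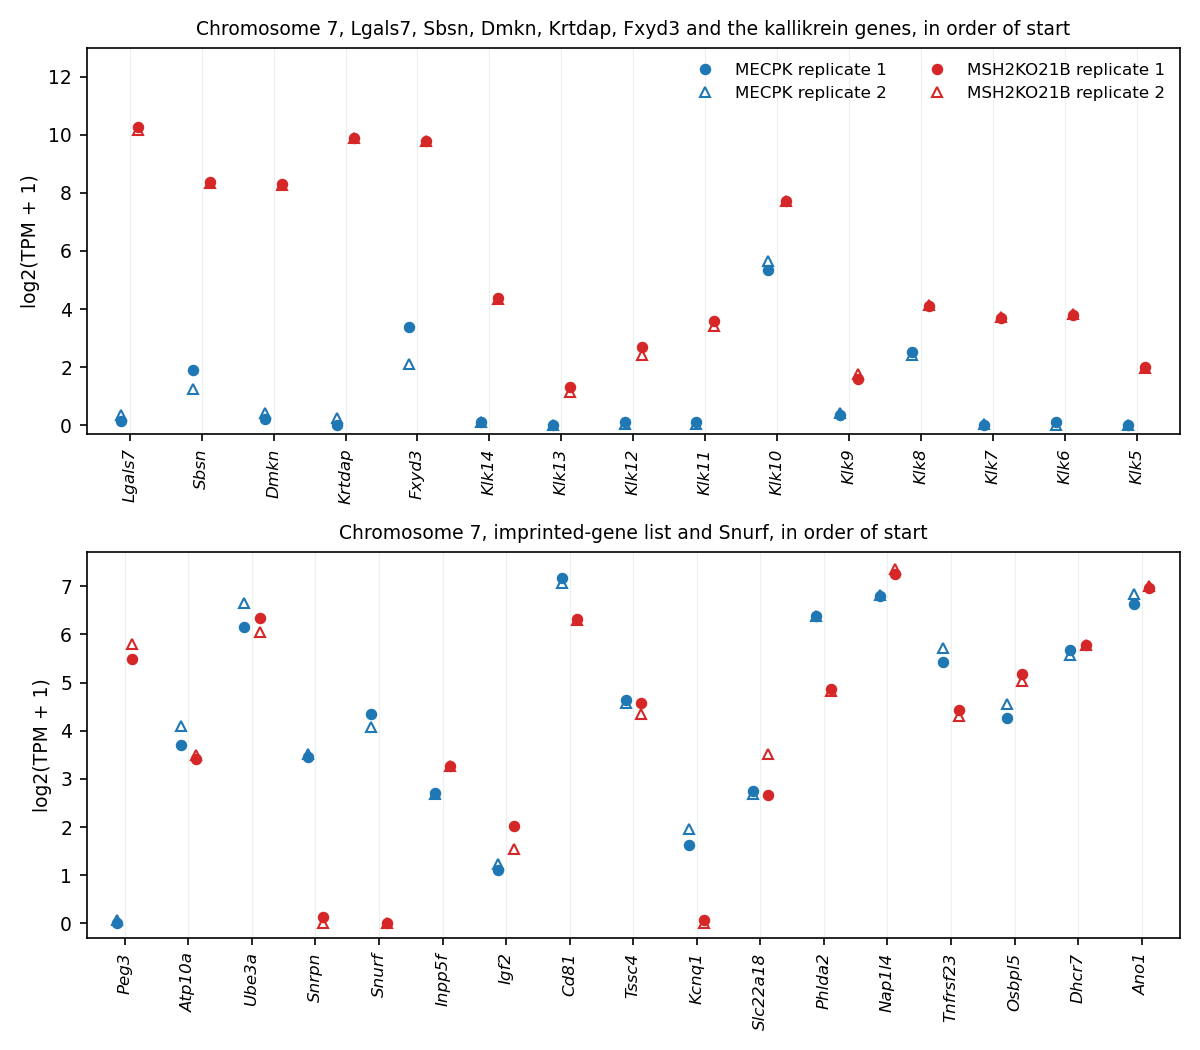
Levels in each library (y axis, log2(TPM + 1); x axis, genes in order of start; circles and triangles, replicates 1 and 2) of Lgals7, Sbsn, Dmkn, Krtdap, Fxyd3 and the 10 kallikrein genes in the upper panel and of the imprinted-gene list with Snurf in the lower panel. All genes of the upper panel are higher in MSH2KO21B (red). The lower panel has genes in both directions, with Peg3 higher and Snrpn, Snurf and Kcnq1 lower. Those 4, and in the upper panel Lgals7, Dmkn, Krtdap and 8 kallikrein genes, entered through 1 line only, which set their direction.

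Aqp8 (ENSMUSG00000030762.11, 123462291 to 123468004, plus strand), a water channel gene, had the largest difference in the other direction, at 169.6 and 208 TPM in MECPK and 0.0893 and 0.0380 TPM in MSH2KO21B. Svip, which encodes a small partner of the VCP segregase, was at 67.0 and 70.4 against 0.295 and 0 TPM. Capn5, a calpain protease gene, was at 75.3 and 90.6 against 0.848 and 1.57 TPM. In MSH2KO21B, none of these 3 genes was above 1.57 TPM. Sigirr, a brake on interleukin-1 and Toll-like receptor signalling, was at 63.2 and 82.6 against 7.75 and 0.535 TPM, so its MSH2KO21B replicates lay far apart, and without a MECPK library it no longer passed. Rhpn2 was at 29.4 and 28.9 against 0.208 and 0.341 TPM. Its last bases overlap those of Faap24, which runs the other way and was higher.

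The 50 to 60 Mb bin was the only bin of chromosome 7 with a negative median, -0.40, over 13 members, fewer than the 20 asked of a bin. Of these, 4 passed as higher, 5 as lower and 4 did not pass (46.6% of all genes passed as higher and 29.7% as lower). The 4 genes of the conserved block beside the imprinted domain that are not imprinted in mice were near the rest of the chromosome, with relative differences of 0.50 for Tubgcp5, 0.27 for Cyfip1, 0.16 for Nipa2 and 0.04 for Nipa1. The lower genes were Svip, Atp10a and, at the Snrpn locus, Snrpn, Snurf and the overlapping model Gm38393. At least Svip, Snrpn and Snurf entered only through MECPK and so had to be lower in MSH2KO21B. Snrpn, which encodes a spliceosome protein and is transcribed from the paternal copy, was at 9.97 and 10.4 TPM in MECPK and at 0.0986 and 0 TPM in MSH2KO21B, and Snurf, the reading frame before it in the same transcript, at 19.2 and 15.8 against 0 and 0 TPM. These gene models share exons, so the division of TPM among them is uncertain, but the 3 together were near 0 in MSH2KO21B. Ube3a, which lies next to them, was at 69.8 and 99.997 against 80.2 and 65.3 TPM, which overlap.

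Imprinted genes of chromosome 7 had differences in both directions. Of 30 listed, 27 were in the table and 16 were members. Of these, 6 passed as higher, 6 as lower and 4 did not pass (46.6% of all genes passed as higher and 29.7% as lower). Peg3 entered only through MSH2KO21B, and Snrpn and Kcnq1 only through MECPK, so their direction was set by that entry. The median of the 16 members was -0.18, and whether the 16 differ from the rest of the chromosome was not tested. Peg3, a paternally expressed zinc finger gene, was at 0.0107 and 0.0450 TPM in MECPK and at 43.9 and 55.0 TPM in MSH2KO21B. Its neighbours Zim1 and Usp29 did not reach the level in either line. In the distal domain, Kcnq1, a potassium channel gene, was at 2.11 and 2.88 against 0.0483 and 0 TPM, and Phlda2, a maternally expressed growth restrainer of the placenta, at 81.9 and 82.6 against 28.0 and 27.4 TPM. Cd81, Tnfrsf23 and Atp10a were the other genes that passed as lower apart from Snrpn. Igf2, the fetal growth factor, was low in both lines, at 1.14 and 1.34 against 3.08 and 1.91 TPM. The files do not separate parental alleles.

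In other clusters of chromosome 7 few genes reached the level. Of 35 listed Ceacam and Psg genes, 28 were matched in the table and only Ceacam16 was a member, at 1.26 and 1.14 against 0.0251 and 0.109 TPM. None of the 4 gel-forming mucin genes was. Of 13 cytochrome P450 2 genes, Cyp2s1 was the only member, at 0.108 and 0.0337 against 23.3 and 24.2 TPM. Ceacam16 and Cyp2s1 each entered through 1 line only, which set their direction. In the apolipoprotein E cluster, 2 of 5 were members, Apoe, the lipid carrier, at 4.58 and 3.22 against 16.1 and 20.1 TPM, which passed as higher, and Tomm40, the mitochondrial import pore, at 124 and 123 against 112 and 105 TPM, which passed as lower but not without either MECPK library, without MSH2KO21B replicate 2 or without the trend. Of 6 Ifitm genes, which encode membrane proteins that restrict virus entry, the 3 members all passed as higher with a median of 2.94. As a background, 46.6% of all genes and 63.9% of the members of chromosome 7 passed as higher, and 29.7% of all genes as lower. Ifitm3 was at 166 and 129.8 against 1318 and 1278 TPM, Ifitm2 at 278 and 252 against 514 and 509.9 TPM, and Ifitm10, a relative in the imprinted region, at 0.998 and 1.88 against 40.6 and 39.96 TPM.

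Of 44 growth, survival and cancer genes of chromosome 7, 39 were members, with a median of 0.37. Of these, 25 passed as higher, 8 as lower and 6 did not pass. However, 4 members, Fgfr2, Fgf15, Wnt11 and Cebpa, entered only through MSH2KO21B and 1, Gab2, only through MECPK. Their direction was set by that entry. The list was close to its chromosome, of whose members 63.9% passed as higher, with a median of 0.39, while 46.6% of all genes passed as higher and 29.7% as lower. Fgfr2, a fibroblast growth factor receptor, was at 0.0611 and 0.169 TPM in MECPK and at 43.4 and 43.5 TPM in MSH2KO21B, and Fgf15, a hormone-like ligand of the same family, at 0.0963 and 0.180 against 7.96 and 8.25 TPM. Plk1, a mitotic kinase, was at 66.2 and 66.9 against 165 and 171 TPM, and Mki67, the proliferation marker, at 28.6 and 32.6 against 76.5 and 74.7 TPM. Hras was at 161 and 159.8 against 270.3 and 263 TPM. These 5 genes did not overlap between the lines, with higher values in MSH2KO21B, as held for 53.7% of all genes tested. For Fgfr2 and Fgf15 this was set by their entry. Among the lower genes, Gab2, a docking protein of receptor kinases, was at 6.56 and 8.72 against 0.0614 and 0.0391 TPM, and Axl, a receptor tyrosine kinase, at 189.8 and 217 against 45.6 and 45.05 TPM. The apoptosis genes Bbc3 and Bax were at 6.83 and 6.67 against 1.96 and 2.00 TPM and at 198 and 171 against 90.02 and 86.6 TPM. Ercc1, an excision repair endonuclease subunit, was at 142 and 157 against 38.4 and 41.2 TPM, and Rras, Fes and Cttn also passed as lower.

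Fgfr2 lies in the 130 to 140 Mb bin, which had the highest median of the bins of chromosome 7, 0.74 over 39 members. Tacc2, a spindle protein gene, was at 27.8 and 30.7 against 82.7 and 84.7 TPM there, and the spindle checkpoint gene Bub3 at 105 and 108 against 224 and 223 TPM. Adam12, a metalloprotease gene of the same bin, was lower, at 16.95 and 21.8 against 0.598 and 0.604 TPM. On chromosome 3 the bin nearest to 0 was that from 120 to 130 Mb, at 0.0014 over 33 members. It held genes in both directions, with Sec24d, a coat protein of secretory vesicles, at 25.1 and 47.7 against 98.7 and 95.1 TPM and Arhgap29, a GTPase-activating protein gene, at 10.3 and 9.85 against 0.257 and 0.547 TPM. Those 5 genes were picked from the bins after their values were seen.

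Neighbouring genes were weakly alike. Across the 581 neighbouring pairs of chromosome 3, the relative differences had a Pearson r of 0.30, which was 0.14 over 552 pairs without the middle segment. Across 911 pairs of chromosome 7 r was 0.21, and across 11814 pairs of the genome 0.19. The sign was shared by 62.8%, 66.6% and 58.4% of pairs. On chromosomes 3 and 7, 70.8% and 69.6% of genes were above 0, against 47.1% on the others. Pairs taken at random would thus share a sign more often on these 2 chromosomes. Neither these shares nor those of the head-to-head pairs below were set against that. All pairs come from the same 4 libraries, so they are not independent.

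Pairs that start head to head had an r of 0.33 across the genome, against 0.19 for all neighbouring pairs. On chromosome 3 their r was also the higher, but fewer of them shared a sign. On chromosome 7 both figures were lower than for neighbouring pairs. These gaps were not tested. On chromosome 3, 12 of 21 pairs had the same sign (57.1%) with an r of 0.36, and on chromosome 7, 26 of 41 did (63.4%) with an r of 0.18, against 62.5% and 0.33 over 557 pairs of the genome. Both genes were above 0 in 10 and in 20 pairs. Their promoters held a median of 23 CG per window with an observed to expected ratio of 0.84 over 113 of 123 genes, against 20 and 0.73 over matched members of chromosome 3 and 19 and 0.74 over those of chromosome 7.

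Faap24, a Fanconi anaemia core complex gene, was at 11.9 and 11.3 TPM in MECPK and at 28.6 and 29.8 TPM in MSH2KO21B, and Cep89, a centriole gene that starts 199 bases away, at 8.66 and 8.24 against 24.2 and 26.4 TPM. Ikzf5, an Ikaros family gene, was at 11.7 and 8.52 against 19.0 and 21.6 TPM, and Acadsb, a branched-chain acyl-CoA dehydrogenase gene 80 bases away, at 4.32 and 4.68 against 10.3 and 10.45 TPM. On chromosome 3, Hs2st1, a heparan sulfate sulfotransferase gene, was at 27.5 and 30.3 against 45.6 and 49.1 TPM, and Selenof, a selenoprotein gene of the endoplasmic reticulum 123 bases away, at 251 and 229 against 368 and 357 TPM. In these 3 pairs both genes were higher in both MSH2KO21B libraries than in either MECPK library. The same held for Ift80, an intraflagellar transport gene, and Smc4, a condensin subunit gene 168 bases away, with relative differences of 1.08 and 0.40. All these pairs were picked because both genes shared a sign and the smaller of their differences was large. Their agreement was thus set by the choice. Of all genes tested, 53.7% did not overlap with higher values in MSH2KO21B.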

How the data were processed

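RNA-seq of total RNA was deposited for 4 libraries, replicates 1 and 2 of MECPK and of MSH2KO21B. Per the submitters' processing notes, the authors used kallisto 0.43.1 and GRCm38, and the deposited table holds TPM per transcript. The transcript set and strand setting were not given in the sources used here. Of 61440 transcripts, 60503 matched GENCODE M21 by identifier without version, and the 937 others (0.733% to 0.944% of TPM) were left out. TPM was summed per gene. TPM keeps no depth, so no counting interval was computed. Kallisto divides reads among near-identical copies by estimation.

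Genes with 1 TPM or more in at least 2 libraries were kept. Relative differences, 10 Mb bins, running medians and segments (b = 0.938) were computed in Python 3.11.15. The line was tested with limma 3.58.1 in R 4.3.3 on log2(TPM + 1) with a trend and Benjamini-Hochberg adjustment over 11921 genes, with a threshold of 0.05. The steps were tested on simulated data. Same-numbered replicates did not deviate together (r = 0.016 over 11921 genes), so no pairing was used.

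The members, gene lists and rules were chosen with earlier results of these data known. Genes named by rule were the 6 largest differences in each direction per chromosome (10 TPM in the higher line, no overlap, no gene models or near-identical copies), the 3 genes nearest each segment median with its boundary genes, up to 4 per list and 2 head-to-head pairs per chromosome. The pairs were those with the same sign in both genes, 10 TPM in the higher line for both and the largest smaller difference. Other genes were named after their values were seen. Lists covered the epidermal differentiation, guanylate-binding protein, glutathione transferase mu, chloride channel accessory, kallikrein, Ceacam and Psg, mucin, Ifitm, cytochrome P450 2 and apolipoprotein E clusters, imprinted genes, Zfp genes and growth genes. Gene coordinates are those of GENCODE M21 on GRCm38. Promoters were taken from a RefSeq table (GRCm38.p6). Alternatives were the filter, the pseudocount, quantile normalization, the reference median, the penalty and length of segments, exclusion of clusters, protein-coding transcripts alone, the trend, a replicate block and each library left out. Centring on the median gene was added after seeing the data.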

Additional observations from a re-analysis of the deposited data

How the results depend on the processing

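The medians kept their sign against the genome under every alternative run except the one that takes chromosomes 3 and 7 as their own reference. Against that reference they were -0.01325 for chromosome 3, 0.0051 for chromosome 7, and -0.01206, 1.99 and -0.0928 for the 3 segments of chromosome 3. With 10 TPM in at least 2 libraries they were 0.44, 0.38, 0.47, 5.195 (11 genes) and 0.37 in the same order, and with values above 0 in at least 2 libraries 0.25, 0.22, 0.29, 1.57 and 0.17. A pseudocount of 0.1 gave 0.42 for chromosome 7 and 5.05 and 0.32 for segments 2 and 3. Quantile normalization gave 0.34 for chromosome 7 and 0.36, 2.27 and 0.31 for the segments. Without gene clusters and Zfp genes the medians were 0.35 for chromosome 3, 0.36 for chromosome 7 and 0.39 for segment 1, and segment 2 could not be computed. With protein-coding transcripts alone they were 0.40 for chromosome 3, 0.38 for chromosome 7 and 0.32 for segment 3. Leaving out each library gave 0.37 to 0.39 for chromosome 3, 0.37 to 0.39 for chromosome 7, 0.37 to 0.39, 2.30 to 2.45 and 0.27 to 0.30 for the segments, and 3 and 1 segments throughout. Chromosome 3 had 1 segment with a penalty of 4 b ln(n), with 40 genes per segment, with 10 TPM and without clusters. Of these settings, only the penalty could still have returned its middle segment. Chromosome 7 had 3 with a penalty of b ln(n) and with a pseudocount of 0.1. Calls without each library were 316 to 377 higher and 64 to 83 lower on chromosome 3 and 476 to 557 and 95 to 120 on chromosome 7, with the lone library assumed to vary like the other line. With 10 TPM, 51 genes of chromosome 3 passed as lower. A replicate block gave 397 higher and 86 lower on chromosome 3 and 600 and 131 on chromosome 7, and of the 76 named genes it changed the call of Gstm1 alone. S100a8 reversed to a log2 difference of -0.55 with quantile normalization, -0.23 without MECPK replicate 1 (0.45, past the threshold, without MECPK replicate 2) and -0.11 with centring, and S100a11 to -0.12 with centring. Of the 76 named genes, 2 no longer passed without either MECPK library (Sigirr and Tomm40), and 5 without MSH2KO21B replicate 1 (Rnf13, Nmd3, Polr3c, Slc30a7 and Ikzf5) or replicate 2 (Tomm40 in place of Rnf13). The cause of these shifts was not tested. Depth is unknown, so genes listed at 0 cannot be told from genes below detection.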
